A study of Mus musculus with 12 samples.

Results

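Core antiviral interferon-stimulated genes were followed in mouse embryonic fibroblast (MEF) cells that expressed a mutant IDH2 or were exposed to 2-hydroxyglutarate (2-HG). The members are 38 genes of 46761 gene names listed in at least 1 of the tables, and comprise effector proteins that act on viruses or on viral nucleic acid, the ISG15 conjugation system and a set of interferon-induced genes of less defined function. They were selected on their names, with changes of these libraries already known, and the tested members were chosen by their measured mean RPM in a table. A gene entered the test where its mean over the 6 libraries of a table was 1 RPM or more (RPM, the reads of a gene per 1000000 reads that fell on genes). After exposure to 2-HG, all 30 members that could be tested were lower than in the 2-HG(-) cells, where 16.7% of all genes tested were called lower, and their median log2 fold change was -1.47. For Usp18, Mx2, Rsad2 and Ifi27l2a this direction was already implied, since they entered the test only through the 2-HG(-) libraries. In the cells with mutant IDH2, 9 of 30 tested members were lower, 3 were higher and 18 did not pass the test, where 17.3% and 16.5% of all genes tested were called lower and higher, and the median log2 fold change was -0.20. The 9 include Ifi27l2a, which entered that test only through the Control libraries.

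The study addressed what mutant IDH2 and its product 2-HG change in the transcriptome, and each group held 3 libraries. All cells were MEF cells of C57BL/6 embryos that had become immortal spontaneously on serial passage. Control cells carried the retroviral vector pMXs-puro without an insert, and 2MUT cells carried the same vector with a cancer-associated mutant of human IDH2 fused to a FLAG tag, so both arms had gone through retroviral transduction. No wild-type IDH2 library was analysed here, and no source used here says whether 1 clone or a pool of transduced cells was kept. 2-HG(+) cells received 2-HG at 300 μM for 24 h, which the labels give without form or enantiomer and the study's methods list as the octyl ester of (R)-2-HG from another supplier. The control also differs between the sources, since the 2-HG(-) cells are labelled as given the solvent DMSO for the same time, whereas the study's text calls them non-treated. Nothing in the labels says that the 3 libraries of a group came from separate cultures, so the p-values measure the spread between these libraries, which may be technical.

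Type I interferons are cytokines that cells secrete when their sensors detect viral nucleic acid. They bind the receptor pair IFNAR1 and IFNAR2, and the kinases JAK1 and TYK2 then activate STAT proteins, which join IRF9 in a complex that binds the interferon-stimulated response element (ISRE) in the promoters of target genes. Fibroblasts both make and answer interferon, and cultured fibroblasts hold many of these transcripts at a low tonic level without infection. 2-HG resembles α-ketoglutarate and inhibits dioxygenases that use it, among them histone and DNA demethylases.

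Depth was 6472439 to 7313602 reads on genes in the Control and 2MUT libraries and 14959318 to 18363768 in the 2-HG libraries, and 3 reads were worth at most 0.464 RPM and 0.201 RPM, respectively. Pearson's correlation of log2(RPM + 1) across genes was 0.9764 to 0.9879 within a group and 0.9482 to 0.9556 between Control and 2MUT, and 0.9887 to 0.9935 within and 0.9575 to 0.9668 between the 2-HG groups. The endogenous Idh2 stood at 70.9, 80.8 and 80.1 RPM in Control and 42.6, 51.1 and 55.2 RPM in 2MUT, and at 186, 184 and 160 RPM in 2-HG(-) and 217, 254 and 244 RPM in 2-HG(+); whether this mouse target also reads the human transgene was not tested, so it does not check the label. Of 11 fibroblast markers, 8 were above 1 RPM on average in each table, and the summed level of the list was 11600 to 12700 RPM in Control against 7910 to 8520 RPM in 2MUT, and 20200 to 21700 RPM in 2-HG(-) against 13700 to 15000 RPM in 2-HG(+). Of the 8 tested, 7 were called lower and 0 higher in 2MUT, and 5 lower and 1 higher with 2-HG, the last being Thy1, at 2.61, 2.67 and 3 RPM in 2-HG(-) and 6.88, 4.51 and 4.31 RPM in 2-HG(+). Thy1 was among those lower in 2MUT, at 82.1, 81.8 and 77.4 RPM in Control and 28, 25.9 and 18.9 RPM in 2MUT. The summed level of 10 leukocyte markers was 8.26 to 12.6, 9.91 to 11.1, 12.4 to 14.8 and 8.93 to 11.1 RPM in Control, 2MUT, 2-HG(-) and 2-HG(+), and the defining leukocyte gene Ptprc was listed at 0 in every library but 1, which held 1 read. Among the others, named after their values were seen, Cd68 made up most of the sum, at 12.4, 6.84 and 8.48 RPM in Control, 6.64, 6.88 and 6.33 RPM in 2MUT, 12.9, 13.4 and 11 RPM in 2-HG(-) and 7.67, 8.12 and 9.61 RPM in 2-HG(+). It was called lower with 2-HG (adjusted p = 0.021) and not in 2MUT (adjusted p = 0.19). Lyz2 was at 0.148, 0.712 and 0.82 RPM in Control and 2.47, 2.63 and 2.75 RPM in 2MUT and passed the filter only through 2MUT, and Csf1r was at 0, 0.57 and 0 RPM in Control and 1.7, 1.46 and 0.688 RPM in 2MUT, under the filter there. The summed level of 6 epithelial markers was at most 0.878 RPM in any library, and that of 5 endothelial markers at most 3.09 RPM. The part of the marker levels in the results was not tested.

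All 38 members are listed in the table of the mutant and 33 in that of 2-HG, where Isg15, Ifit3, Ifitm2, Ifitm3 and Phf11b are not listed. The filter left 30 members for the test in each table, 28 of them in both. Mx1 and Ifitm1 were tested for the mutant alone, Herc6 and Rsad2 for 2-HG alone, and Isg15, Ifit3, Ifitm2, Ifitm3, Epsti1 and Phf11b in neither. Ifit3 and Phf11b were listed at 0 in all 6 libraries of the mutant table, Isg15 at 0 in 5 of 6, and Ifitm2, Ifitm3 and Epsti1 at no more than 0.413, 0.296 and 0.137 RPM. Each value reflects 1 amplified target of a transcript, and a gene listed at 0 was not read as absent. In the mutant table the member just inside the filter was Mx1, with a mean of 1.07 RPM, and the one just outside was Rsad2, with 0.391 RPM. In the 2-HG table these were Ifi27l2a, with 1.09 RPM, and Mx1, with 0.688 RPM. Usp18, Mx2, Rsad2 and Ifi27l2a passed in the 2-HG table only through the 2-HG(-) libraries, so a lower value in 2-HG(+) was already implied for them; in the mutant table the same holds for Mx1, Ifitm1 and Ifi27l2a and the Control libraries.

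The promoters were searched for the recognition sequence of the interferon-activated complex. In the RefSeq promoter windows of GRCm38.p6, from 250 bases before to 50 bases after each annotated start, 30 of the 38 members had at least 1 window, and Mx1, Mx2, Ifi27, Ifi27l2a, Rtp4, Usp18, Parp9 and Parp14 had none. The ISRE core, TTTCNNTTTC on one strand and GAAANNGAAA on the other, was found in 14 of the 30 (46.7%), against 1079 of 27025 genes with a window (3.99%). The interferon-gamma activated site (GAS), TTCNNNGAA, which reads the same on both strands and may overlap the ISRE core, was found in 7 of the 30 (23.3%), against 9.55% of all genes. A match is a description of these letters and not a site shown to be bound, and absence of a match says nothing of regions outside the window. The stretches below are printed from 5′ to 3′ on the strand of the gene in lower case, with the ISRE core in capitals, for members that show paired copies, overlapping copies, 1 copy and a shared stretch.
Ifit1 (chr19:34640739-34640870, + strand): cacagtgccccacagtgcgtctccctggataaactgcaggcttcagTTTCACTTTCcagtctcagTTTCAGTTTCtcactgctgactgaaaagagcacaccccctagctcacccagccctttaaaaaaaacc
Bst2 (chr8:71537473-71537622, - strand): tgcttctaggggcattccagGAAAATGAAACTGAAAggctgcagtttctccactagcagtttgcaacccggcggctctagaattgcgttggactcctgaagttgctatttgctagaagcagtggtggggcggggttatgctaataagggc
Trim30a (chr7:104465194-104465343, - strand): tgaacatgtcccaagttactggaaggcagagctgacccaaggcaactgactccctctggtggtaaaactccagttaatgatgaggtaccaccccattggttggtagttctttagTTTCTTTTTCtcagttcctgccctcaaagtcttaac
Apol9a (chr15:77411117-77411146, - strand): gtgagacTTTCAGTTTCCATTTCccagttg
Apol9b (chr15:77729028-77729057, + strand): gtgagacTTTCAGTTTCCATTTCccagttg
Ifit1 holds 2 separate copies, whose first bases lie 104 and 85 bases before the start. In Bst2, which encodes tetherin, the 2 copies overlap in a run of the GAAA type, 130 and 124 bases before the start, and a GAS match overlaps the first of them. Trim30a holds 1 copy in the stretch shown, and its window at a separate second start holds another. The paralogs Apol9a and Apol9b on chromosome 15 hold the same 30 bases with overlapping copies. All 228 aligned bases upstream of their RefSeq starts were identical (100%). The GENCODE start of each gene falls within these 30 bases, so part of the stretch lies inside the gene as annotated there. Isg15 holds 3 overlapping copies, although its transcript was not tested. Ifi44, the member with the largest change under 2-HG, has no match in its window.

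**Figure D1:**
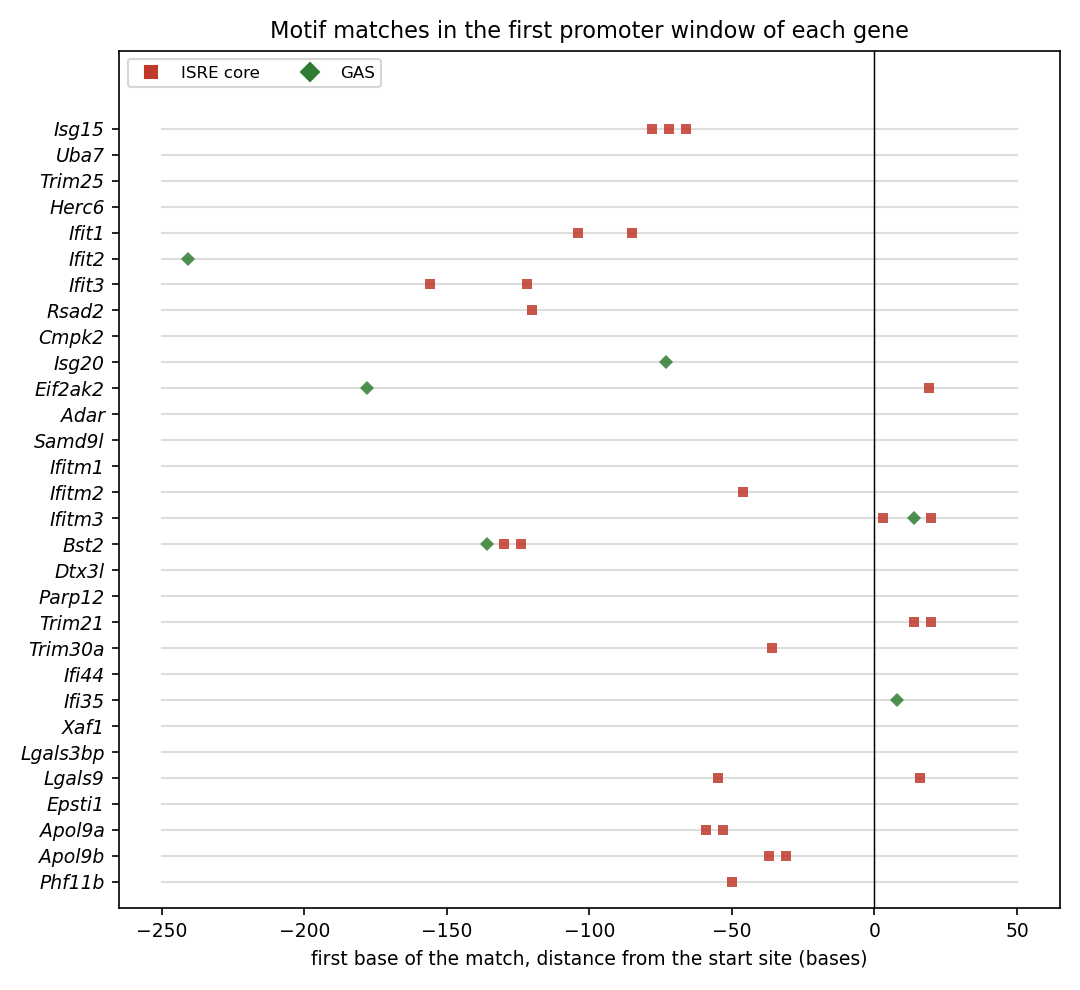
Positions of motif matches in the first RefSeq promoter window of the 30 members with a window; the x axis gives the distance of the first base of a match from the start site in bases, squares are ISRE cores and diamonds are GAS matches. The ISRE cores in these windows lie between 156 bases before and 20 bases after the start, and 16 of the 30 genes hold none.

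With 2-HG, 30 of 30 tested members fell and 0 rose, where 1737 of 10382 genes (16.7%) were called lower and 1668 (16.1%) higher (limma, Benjamini-Hochberg adjusted p under 0.05). The 30 include Usp18, Mx2, Rsad2 and Ifi27l2a, whose fall was already implied because they passed the filter only through the 2-HG(-) libraries. No member was higher at an unadjusted p under 0.05 either, and edgeR and DESeq2 called 0 higher. The members' log2 fold changes ran from -3.72 for Ifi44 to -0.43 for Ifit2, with a median of -1.47 beside -0.02 for all genes. A log2 fold change under -1 was measured for 21 of the 30 members and for 399 of the 10382 genes, and one under -2 for 9 members and 63 genes. In all 30, the 3 libraries of 2-HG(+) lay below the 3 of 2-HG(-), as they did for 24.1% of the genes tested. These are bulk libraries, in which fewer expressing cells and less RNA per cell cannot be told apart.

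**Figure D2:**
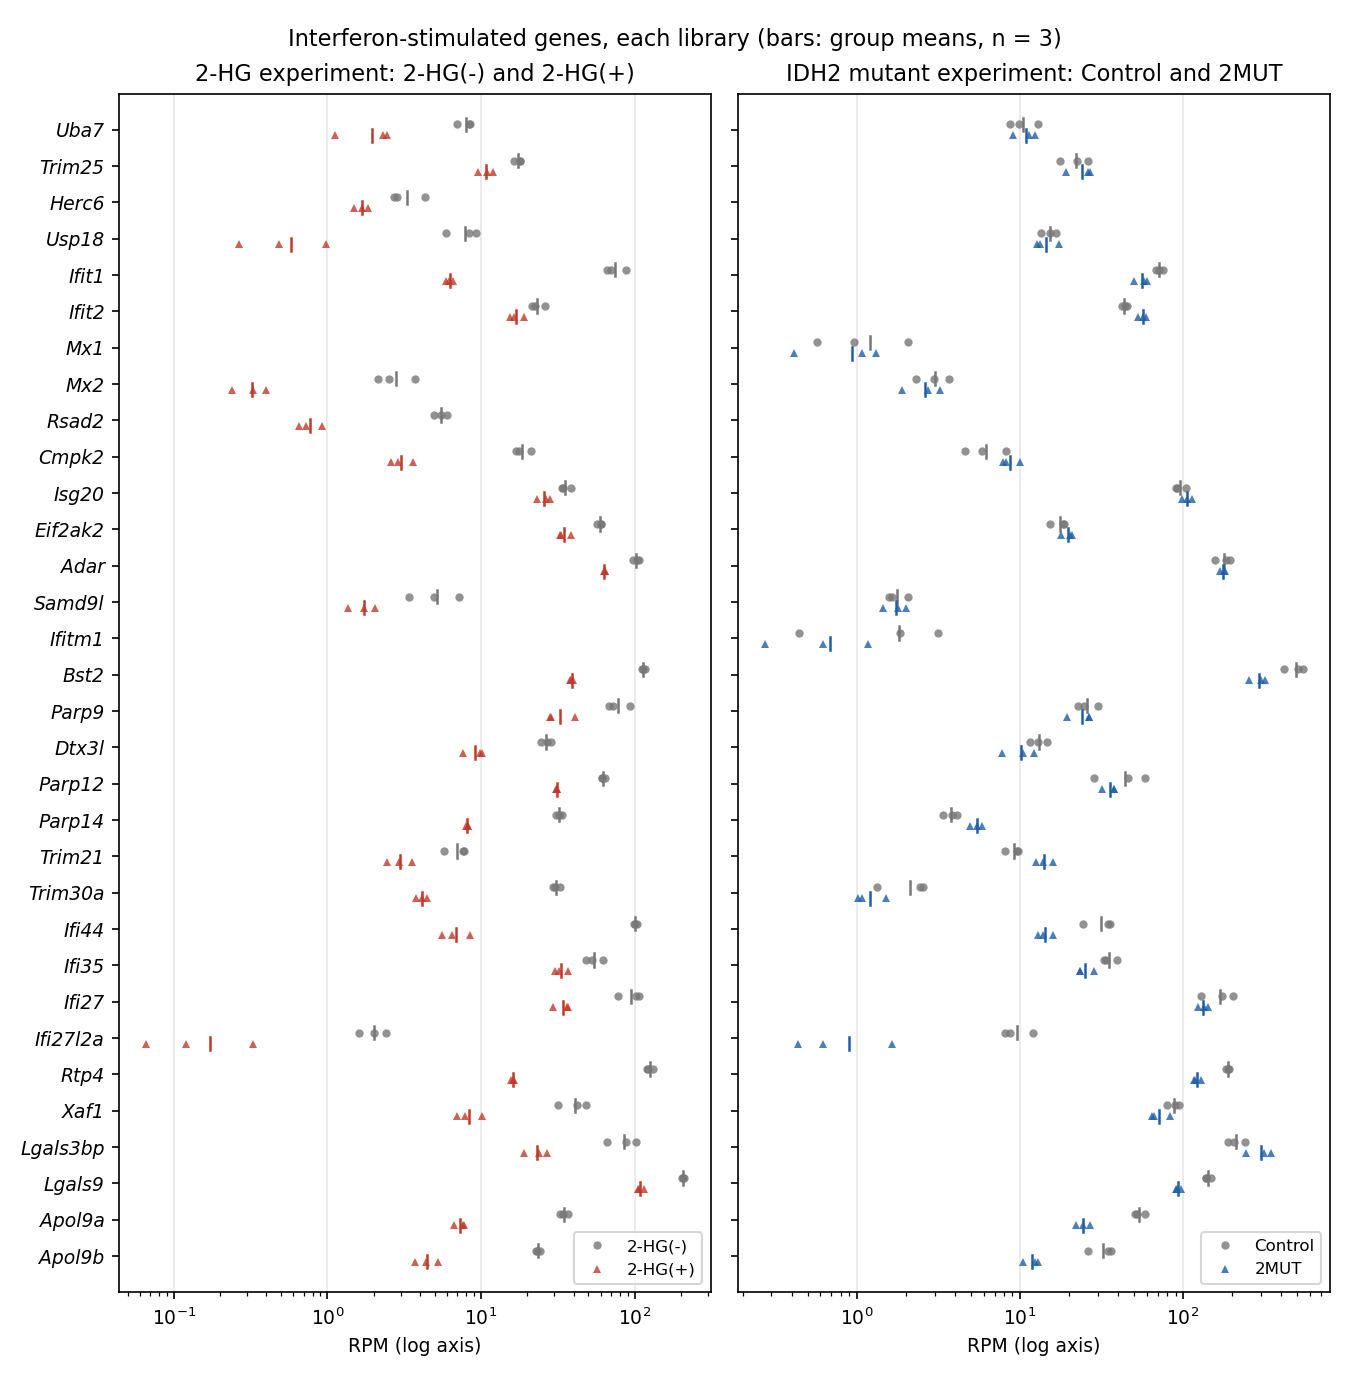
RPM of every library (log axis) for the members tested in each experiment, on the left 2-HG(-) (circles) and 2-HG(+) (triangles), on the right Control (circles) and 2MUT (triangles); vertical bars are means of 3 libraries, and a gene not tested in an experiment is left blank. On the left the triangles lie below the circles for all 30 genes, while on the right most pairs of groups overlap.

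In 2MUT against Control, 9 of 30 tested members were called lower and 3 higher, where 1915 (17.3%) and 1824 (16.5%) of 11063 genes were. The members lower in 2MUT were Ifit1, Bst2, Ifi44, Ifi35, Ifi27l2a, Rtp4, Lgals9, Apol9a and Apol9b, and those higher were Ifit2, Trim21 and Lgals3bp. Ifi27l2a passed the filter only through the Control libraries, so its lower value was already implied. Log2 fold changes ran from -2.52 for Ifi27l2a to 0.57 for Trim21, and the median of -0.20 stood beside 0.01 for all genes. That median was -0.11 without Control replicate 1, -0.086 with no filter and -0.30 with edgeR. The groups did not overlap for 9 members on the lower side and 4 on the higher side, where 24.0% and 23.5% of all genes tested behaved so. The count of higher members lies under the share among all genes and the count of lower members above it, and neither was tested as a list. An unadjusted p under 0.05 was reached by 13 members, the 12 called and Xaf1, and edgeR and DESeq2 on the recovered reads each called 9 lower and 3 higher. Without 2MUT replicate 1 or 2 the number of members called higher was 0, and without Control replicate 1 or 2 it was 1. A log2 fold change under -1 was measured for 4 members and 460 genes.

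**Figure D3:**
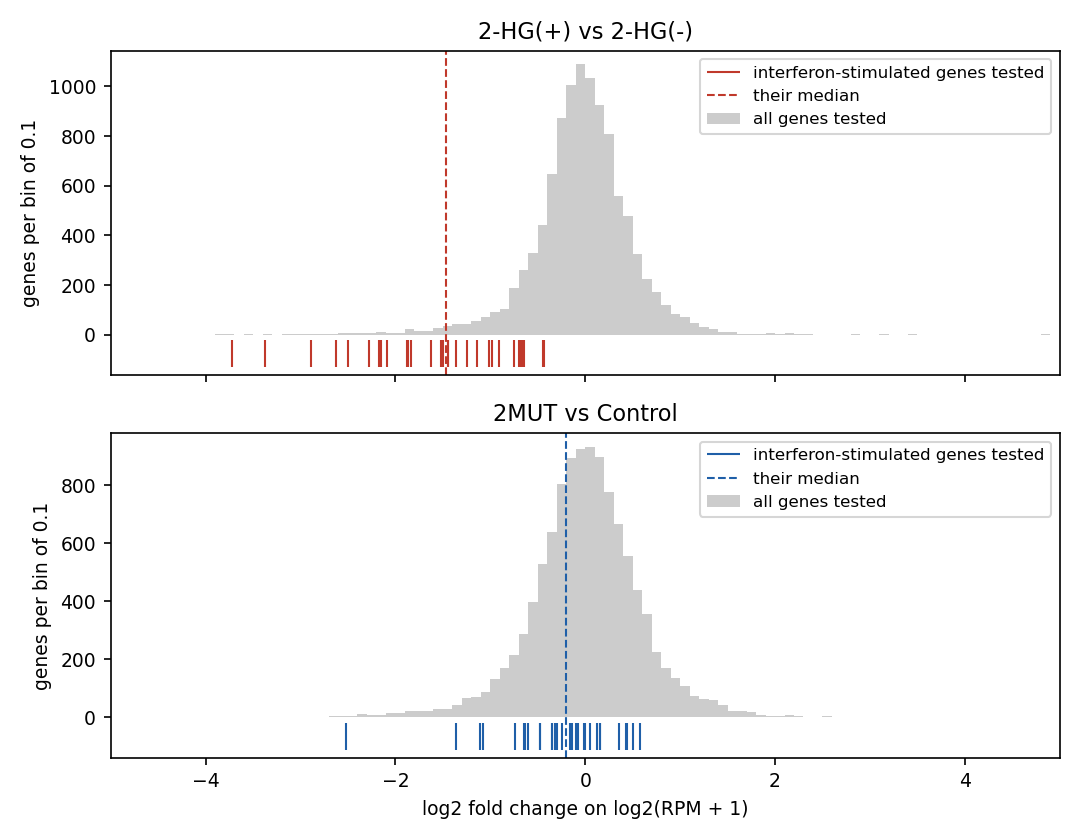
Histograms of the log2 fold change on log2(RPM + 1) of all genes tested, with values beyond the axis in the outermost bins, for 2-HG(+) against 2-HG(-) (top) and 2MUT against Control (bottom); ticks under the axis are the tested members and the dashed line is their median. The ticks all lie below 0 in the upper panel, with the median at -1.47, and spread on both sides of 0 in the lower panel, with the median at -0.20.

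The ISG15 conjugation system attaches the ubiquitin-like protein ISG15 to target proteins, and its 4 members tested with 2-HG all fell, while the 3 tested in 2MUT did not pass. Usp18, the protease that removes ISG15 and restrains the interferon receptor (chr6:121245906-121270917, + strand), was at 8.33, 9.29 and 5.94 RPM in the 2-HG(-) libraries and 0.264, 0.481 and 0.98 RPM in the 2-HG(+) libraries. Every 2-HG(+) library was under 1 RPM and every 2-HG(-) library above 5, a log2 fold change of -2.50 ± 0.21 (adjusted p = 3.4e-05). Usp18 passed the filter only through the 2-HG(-) libraries, so this direction was already implied and its p-value is no separate support. The mean was 13.7-fold higher without 2-HG, and edgeR and DESeq2 gave log2 fold changes of -3.75 and -3.76. Uba7, the E1 enzyme that activates ISG15 (chr9:107975505-107984060, + strand), was at 8.49, 6.95 and 8.41 RPM in the 2-HG(-) libraries and 1.12, 2.46 and 2.29 RPM in the 2-HG(+) libraries. The groups stood apart, and the mean was 4.06-fold higher without 2-HG (log2 fold change -1.63 ± 0.20, adjusted p = 0.00031). For Trim25, an E3 ligase for ubiquitin and ISG15 that also acts on the RNA sensor RIG-I (chr11:88999376-89020293, + strand), the values were 18, 16.5 and 17.8 RPM in the 2-HG(-) libraries and 10.9, 9.62 and 12 RPM in the 2-HG(+) libraries. This was a smaller difference, with a log2 fold change of -0.64 ± 0.13. Herc6, the main ISG15 ligase of the mouse, reached only 2.72, 4.34 and 2.82 RPM in the 2-HG(-) libraries and 1.85, 1.68 and 1.5 RPM in the 2-HG(+) libraries, with a log2 fold change of -0.66 ± 0.18 (adjusted p = 0.017), which lost the call without 2-HG(+) replicate 3 (adjusted p = 0.051) and with an unmoderated test (adjusted p = 0.073). In the mutant experiment, Usp18 stood at 13.5, 15.4 and 16.7 RPM in the Control libraries and 12.7, 17.3 and 13.3 RPM in the 2MUT libraries. Uba7 stood at 8.73, 13 and 9.85 RPM in the Control libraries and 12.4, 11.3 and 9.08 RPM in the 2MUT libraries. Trim25 was at 22.3, 17.5 and 26.3 RPM in the Control libraries and 19.2, 26.1 and 26.8 RPM in the 2MUT libraries. In each of these the groups overlapped, and adjusted p was 0.77, 0.85 and 0.65 in that order. Exons of Usp18 and Uba7 overlap those of other annotated genes, Gm44148 on the other strand and Gm20661 on the same strand, respectively.

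IFIT proteins bind viral RNA ends or each other. Ifit1 (chr19:34640871-34650009, + strand) was at 65.6, 88.3 and 70.6 RPM in the 2-HG(-) libraries and 6.61, 5.89 and 6.21 RPM in the 2-HG(+) libraries. Its mean was 12-fold higher without 2-HG, with a wide gap between the groups and a log2 fold change of -3.38 ± 0.14 (adjusted p = 6.1e-07). In the other experiment it was at 75.5, 68.4 and 71 RPM in the Control libraries and 50.4, 60.5 and 57.8 RPM in the 2MUT libraries. The 2MUT libraries again lay below all Control libraries, but by far less (log2 fold change -0.35 ± 0.12, adjusted p = 0.039), and the call was lost in each of the 6 fits that left out 1 library, with adjusted p up to 0.15, and with an unmoderated test (adjusted p = 0.068). Ifit2, a partner of the other IFITs (chr19:34550694-34576419, + strand), was at 26, 21.5 and 22.3 RPM in the 2-HG(-) libraries and 15.5, 16.4 and 19.1 RPM in the 2-HG(+) libraries. This was among the smallest falls of the members, with a log2 fold change of -0.43 ± 0.13 (adjusted p = 0.033), and the call was lost without 2-HG(-) replicate 1 or 3 or 2-HG(+) replicate 1 or 2 (adjusted p up to 0.12) and with no filter (0.057), an unmoderated test (0.078) and the replicate number as a block (0.089). With the mutant, Ifit2 was at 42, 44 and 45.1 RPM in the Control libraries and 59.6, 52.6 and 57.2 RPM in the 2MUT libraries. Here the 2MUT libraries lay above all Control libraries, with a log2 fold change of 0.36 ± 0.11 (adjusted p = 0.032), a call that was lost without Control replicate 1 or 2 or without any 1 of the 2MUT libraries (adjusted p up to 0.11). The IFIT genes are similar in sequence, so reads could be shared between family members.

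All 7 tested effectors that act on nucleic acid or on replication fell with 2-HG. Cmpk2, a nucleotide kinase (chr12:26469204-26479837, + strand), and Rsad2, which encodes viperin, the enzyme that makes a chain-terminating nucleotide (chr12:26442746-26456452, - strand), are neighbours on chromosome 12. Cmpk2 was at 16.9, 21 and 17.7 RPM in the 2-HG(-) libraries and 2.58, 2.89 and 3.59 RPM in the 2-HG(+) libraries, and its mean was 6.14-fold higher without 2-HG. Rsad2 was at 4.96, 6.02 and 5.52 RPM in the 2-HG(-) libraries and 0.926, 0.722 and 0.653 RPM in the 2-HG(+) libraries. Both stood clearly apart between the groups, with log2 fold changes of -2.28 ± 0.15 (adjusted p = 7.6e-06) and -1.88 ± 0.15 (adjusted p = 2e-05). For Rsad2 the mean was 7.17-fold higher without 2-HG, and DESeq2 gave a log2 fold change of -2.82. Rsad2 passed the filter only through the 2-HG(-) libraries, so its fall was already implied. With the mutant, Cmpk2 was at 4.59, 8.26 and 5.88 RPM in the Control libraries and 8.19, 9.96 and 7.84 RPM in the 2MUT libraries, and the 2 groups overlapped (log2 fold change 0.44 ± 0.22, adjusted p = 0.15). Mx2, a dynamin-like GTPase (chr16:97535308-97560900, + strand), was at 2.12, 3.74 and 2.52 RPM in the 2-HG(-) libraries and 0.397, 0.241 and 0.327 RPM in the 2-HG(+) libraries. It stood at 3.7, 2.99 and 2.32 RPM in the Control libraries and 3.25, 1.9 and 2.75 RPM in the 2MUT libraries, where the groups overlapped. Its log2 fold changes were -1.50 ± 0.18 (adjusted p = 0.00029) with 2-HG and -0.14 ± 0.24 (adjusted p = 0.68) in 2MUT. In the 2-HG experiment Mx2 passed the filter only through the 2-HG(-) libraries, so its fall was already implied. At this low level the added 1 RPM compresses the change, and the mean of Mx2 was 8.69-fold higher without 2-HG, with a log2 fold change of -2.76 with 0.1 added, -3.08 with edgeR and -3.11 with DESeq2. The related Mx1, which is defective in C57BL/6 mice, was at 1.42, 1.8 and 0.781 RPM in the 2-HG(-) libraries and 0, 0.06 and 0.065 RPM in the 2-HG(+) libraries, under the filter, and was not tested there. In the mutant experiment Mx1 was at 2.07, 0.57 and 0.957 RPM in the Control libraries and 1.08, 1.32 and 0.413 RPM in the 2MUT libraries, with overlapping groups (adjusted p = 0.74).

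Eif2ak2, which encodes the kinase PKR that stops translation when it meets double-stranded RNA (chr17:78852564-78882573, - strand), was at 56.7, 60.4 and 60.3 RPM in the 2-HG(-) libraries and 32.5, 33.4 and 38.6 RPM in the 2-HG(+) libraries. The gap was clear and its mean was 1.7-fold higher without 2-HG. Adar, the deaminase that converts adenosine to inosine in double-stranded RNA (chr3:89715022-89753446, + strand), was at 97.4, 107 and 104 RPM in the 2-HG(-) libraries and 64, 64 and 62.8 RPM in the 2-HG(+) libraries. It too fell by a modest amount, and its log2 fold change was -0.68 ± 0.09 (adjusted p = 0.00049) beside -0.75 ± 0.11 (adjusted p = 0.00072) for Eif2ak2. Isg20, an exonuclease (chr7:78913424-78920396, + strand), was at 33.9, 34 and 38.4 RPM in the 2-HG(-) libraries and 23.1, 26.3 and 28.1 RPM in the 2-HG(+) libraries. Samd9l, a restriction factor that blocks translation (chr6:3372257-3399572, - strand), was at 3.38, 4.95 and 7.14 RPM in the 2-HG(-) libraries and 2.05, 1.74 and 1.37 RPM in the 2-HG(+) libraries. Isg20 had one of the smallest log2 fold changes among the members, -0.44 ± 0.12 (adjusted p = 0.019), and lost the call without 2-HG(-) replicate 3 or 2-HG(+) replicate 2 (adjusted p up to 0.085) and with an unmoderated test (adjusted p = 0.0509). For Samd9l the log2 fold change was -1.14 ± 0.22 (adjusted p = 0.004), a call lost with an unmoderated test (adjusted p = 0.062). In the mutant experiment none of the 7 tested effectors passed the limma test at an adjusted p under 0.05. Eif2ak2 was at 18.5, 15.4 and 18.6 RPM in the Control libraries and 17.8, 20.8 and 20.2 RPM in the 2MUT libraries. Adar was at 195, 183 and 157 RPM in the Control libraries and 179, 180 and 169 RPM in the 2MUT libraries. For both, as for the next pair, the groups overlapped. Isg20 was at 91.9, 90.2 and 104 RPM in the Control libraries and 99.2, 114 and 106 RPM in the 2MUT libraries. Samd9l was at 2.07, 1.57 and 1.64 RPM in the Control libraries and 2.01, 1.46 and 1.79 RPM in the 2MUT libraries. The log2 fold changes of these 4 in 2MUT were 0.16 ± 0.15, -0.02 ± 0.10, 0.15 ± 0.11 and -0.0034 ± 0.23 in that order. Exons of Adar overlap those of Chrnb2 on the other strand, and whether counting used strand is not given in the sources used here.

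Among membrane restriction factors, Bst2, or tetherin, which holds budding virions at the cell surface (chr8:71534255-71537456, - strand), was the 1 member tested in both experiments. It was at 111, 116 and 113 RPM in the 2-HG(-) libraries and 38.8, 37.8 and 39.9 RPM in the 2-HG(+) libraries. It was also at 508, 542 and 416 RPM in the Control libraries and 318, 302 and 255 RPM in the 2MUT libraries. The groups stood apart in both experiments, with log2 fold changes of -1.52 ± 0.09 (adjusted p = 4.4e-06) with 2-HG and -0.74 ± 0.12 (adjusted p = 0.00084) in 2MUT. Ifitm1, which blocks fusion of virus and cell (chr7:140967221-140969825, + strand), was at 0.444, 1.85 and 3.15 RPM in the Control libraries and 0.618, 1.17 and 0.275 RPM in the 2MUT libraries, with overlapping groups (adjusted p = 0.22, and 0.041 without Control replicate 1), and at 0 or 1 read in the 2-HG libraries.

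All 6 PARP, DTX and TRIM members fell with 2-HG, and 1 of them, Trim21, was higher in 2MUT. Trim30a, a TRIM protein of a mouse gene cluster (chr7:104409025-104465193, - strand), was at 30.1, 32.6 and 29.3 RPM in the 2-HG(-) libraries and 3.77, 4.15 and 4.44 RPM in the 2-HG(+) libraries. The mean was 7.44-fold higher without 2-HG, and its log2 fold change was -2.63 ± 0.13 (adjusted p = 1.6e-06). In the mutant experiment it was at 1.33, 2.56 and 2.46 RPM in the Control libraries and 1.08, 1.02 and 1.51 RPM in the 2MUT libraries, where the groups overlapped and the test was not passed (adjusted p = 0.18). Trim21, a cytosolic antibody receptor and ubiquitin ligase (chr7:102557921-102565486, - strand), was at 7.62, 7.69 and 5.76 RPM in the 2-HG(-) libraries and 2.45, 3.55 and 2.94 RPM in the 2-HG(+) libraries. It was at 9.62, 8.12 and 9.71 RPM in the Control libraries and 13.9, 16 and 12.5 RPM in the 2MUT libraries. Thus all 2-HG(+) libraries lay below their controls and all 2MUT libraries above theirs, with log2 fold changes of -1.01 ± 0.17 (adjusted p = 0.0015) and 0.57 ± 0.17 (adjusted p = 0.024). The call in 2MUT was lost without Control replicate 2 or 2MUT replicate 1 or 2 (adjusted p up to 0.1) and with no filter (adjusted p = 0.058). The related members of the Trim30 cluster could share reads with Trim30a.

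Parp9 and Dtx3l encode a complex of an ADP-ribosyltransferase and a ubiquitin ligase and lie head to head on chromosome 16 with overlapping exons on opposite strands, so their values may not be separate. Parp9 (chr16:35938470-35972605, + strand) was at 67.9, 93.3 and 72.3 RPM in the 2-HG(-) libraries and 40.8, 28.1 and 28.6 RPM in the 2-HG(+) libraries. Dtx3l (chr16:35926511-35939151, - strand) was at 26.7, 24.4 and 28.7 RPM in the 2-HG(-) libraries and 7.67, 9.8 and 10.1 RPM in the 2-HG(+) libraries. The groups did not overlap, and the means were 2.39-fold and 2.89-fold higher without 2-HG. Parp12 and Parp14 are mono-ADP-ribosyltransferases. Parp12 (chr6:39086410-39118349, - strand) was at 61.4, 64.4 and 61.5 RPM in the 2-HG(-) libraries and 31.4, 30.8 and 31.3 RPM in the 2-HG(+) libraries. Parp14 (chr16:35832874-35871544, - strand) was at 30.7, 32.3 and 33.9 RPM in the 2-HG(-) libraries and 8.2, 7.94 and 8.17 RPM in the 2-HG(+) libraries. The groups again stood apart, and the means were 2-fold and 3.98-fold higher without 2-HG. The log2 fold changes of the 4 genes in this order were -1.24 ± 0.17, -1.44 ± 0.14, -0.98 ± 0.10 and -1.87 ± 0.11, with adjusted p from 4.9e-06 to 0.00054. In the mutant experiment Parp9 was at 30, 24.6 and 22.7 RPM in the Control libraries and 19.5, 26.5 and 26.4 RPM in the 2MUT libraries. Dtx3l was at 11.5, 13 and 14.6 RPM in the Control libraries and 10.5, 7.76 and 12.2 RPM in the 2MUT libraries. Parp12 was at 58.1, 45.9 and 28.4 RPM in the Control libraries and 31.8, 37.5 and 38 RPM in the 2MUT libraries. In these 3 the groups overlapped, and the log2 fold changes were -0.10 ± 0.17, -0.35 ± 0.20 and -0.24 ± 0.22, none past the threshold, although Parp12 passed it without Control replicate 3 (adjusted p = 0.016). Parp14 was at 3.4, 4.13 and 3.83 RPM in the Control libraries and 4.94, 5.86 and 5.5 RPM in the 2MUT libraries, so that its 2MUT libraries lay above the Control libraries with a log2 fold change of 0.43 ± 0.20 that did not pass the test (adjusted p = 0.12, and 0.044 with an unmoderated test).

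The remaining interferon-induced genes held 7 of the 9 members called lower in 2MUT. Ifi44, a cytosolic protein (chr3:151730922-151749960, - strand), was at 100, 104 and 98.6 RPM in the 2-HG(-) libraries and 8.53, 5.53 and 6.47 RPM in the 2-HG(+) libraries. This was the largest log2 fold change among the members, -3.72 ± 0.15 (adjusted p = 5.6e-07), and a 14.8-fold difference of the means. In the other experiment Ifi44 was at 35.5, 24.5 and 34.7 RPM in the Control libraries and 13, 16 and 13.9 RPM in the 2MUT libraries. It fell there as well, by a smaller amount (log2 fold change -1.08 ± 0.17, adjusted p = 0.00081). Rtp4, a receptor transporter protein (chr16:23520291-23614222, + strand), was at 131, 123 and 121 RPM in the 2-HG(-) libraries and 16.1, 15.7 and 16.5 RPM in the 2-HG(+) libraries. It was at 189, 191 and 184 RPM in the Control libraries and 119, 128 and 116 RPM in the 2MUT libraries. The replicates were tight in both, and log2 fold changes were -2.88 ± 0.10 (adjusted p = 2.7e-07) and -0.64 ± 0.09 (adjusted p = 0.00042). Exons of Rtp4 overlap those of Gm45338 on the same strand.

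Apol9a and Apol9b, the paralogs of the apolipoprotein L family whose promoters are shown above, fell in both experiments, and as close paralogs they may share reads. Apol9a (chr15:77403789-77411135, - strand) was at 34.3, 36.7 and 32.7 RPM in the 2-HG(-) libraries and 7.8, 6.67 and 7.58 RPM in the 2-HG(+) libraries. Apol9b (chr15:77729039-77736382, + strand) was at 23, 24.2 and 22.9 RPM in the 2-HG(-) libraries and 3.7, 5.23 and 4.38 RPM in the 2-HG(+) libraries. The 2-HG(+) libraries lay far below in both, with log2 fold changes of -2.09 ± 0.12 and -2.17 ± 0.14 (adjusted p = 4e-06 and 6.6e-06). With the mutant, Apol9a was at 52.4, 58.3 and 50.9 RPM in the Control libraries and 22.1, 26.8 and 24.4 RPM in the 2MUT libraries. Apol9b was at 36.3, 34.8 and 26 RPM in the Control libraries and 12.4, 12.9 and 10.5 RPM in the 2MUT libraries. The 2MUT libraries lay below in both again, with log2 fold changes of -1.11 ± 0.13 and -1.36 ± 0.17 (adjusted p = 0.0001 and 0.00015). Lgals9, which encodes galectin-9, a sugar-binding protein (chr11:78962974-78984946, - strand), was at 209, 202 and 206 RPM in the 2-HG(-) libraries and 115, 105 and 106 RPM in the 2-HG(+) libraries. It was at 138, 139 and 149 RPM in the Control libraries and 97.8, 92.1 and 90.1 RPM in the 2MUT libraries. Its log2 fold changes were -0.91 ± 0.09 (adjusted p = 7.5e-05) and -0.60 ± 0.10 (adjusted p = 0.00084), and no groups overlapped. Ifi35, a cytosolic protein (chr11:101448407-101458698, + strand), was at 52.6, 62.4 and 48.3 RPM in the 2-HG(-) libraries and 36.9, 32.2 and 30.2 RPM in the 2-HG(+) libraries. It was at 39.2, 33 and 33.5 RPM in the Control libraries and 28.6, 23.3 and 23.4 RPM in the 2MUT libraries. It was lower in both, with log2 fold changes of -0.70 ± 0.13 (adjusted p = 0.0029) and -0.48 ± 0.14 (adjusted p = 0.024), the latter lost without Control replicate 1 or 2MUT replicate 2 or 3 (adjusted p up to 0.088) and with an unmoderated test (adjusted p = 0.068).

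Ifi27 and Ifi27l2a encode small hydrophobic proteins and are neighbours on chromosome 12. Ifi27 (chr12:103434211-103440239, + strand) was at 106, 77.7 and 102 RPM in the 2-HG(-) libraries and 29.4, 36.4 and 37 RPM in the 2-HG(+) libraries. Ifi27l2a (chr12:103442167-103443680, - strand) was at 2.02, 1.6 and 2.4 RPM in the 2-HG(-) libraries and 0.066, 0.12 and 0.327 RPM in the 2-HG(+) libraries. The 2-HG(+) libraries lay below in both, with log2 fold changes of -1.44 ± 0.15 (adjusted p = 9.2e-05) and -1.36 ± 0.17 (adjusted p = 0.00032), but the means were 2.78-fold and 11.7-fold higher without 2-HG. Ifi27l2a rested on 1 to 5 reads in 2-HG(+), and its log2 fold change was -3.06 with 0.1 added, -3.50 with edgeR and -3.55 with DESeq2. It passed the filter only through the 2-HG(-) libraries, so its fall was already implied. In the mutant experiment Ifi27l2a was at 8.14, 12 and 8.75 RPM in the Control libraries and 0.618, 0.439 and 1.65 RPM in the 2MUT libraries. It showed the largest change of any member there, with a log2 fold change of -2.52 ± 0.27 (adjusted p = 6.3e-05). As it passed the filter only through the Control libraries, a lower value in 2MUT was already implied, and its rank is a description. Ifi27 was at 129, 201 and 174 RPM in the Control libraries and 134, 142 and 123 RPM in the 2MUT libraries, where the groups overlapped (adjusted p = 0.12, and 0.0097 without Control replicate 1). Xaf1, an antagonist of the apoptosis inhibitor XIAP (chr11:72301629-72313733, + strand), was at 47.9, 31.6 and 42.4 RPM in the 2-HG(-) libraries and 6.94, 10.2 and 7.91 RPM in the 2-HG(+) libraries. It was at 79.5, 89.5 and 94.3 RPM in the Control libraries and 66.3, 83.6 and 64.5 RPM in the 2MUT libraries. It fell with 2-HG (log2 fold change -2.15 ± 0.18, adjusted p = 3.4e-05), whereas its value of -0.30 ± 0.13 in 2MUT did not pass the test (adjusted p = 0.096, and 0.045 without 2MUT replicate 2). Lgals3bp, a secreted glycoprotein that binds galectin-3 (chr11:118392751-118402092, - strand), was at 88.3, 65.6 and 102 RPM in the 2-HG(-) libraries and 18.9, 23.7 and 26.7 RPM in the 2-HG(+) libraries. It was at 189, 241 and 204 RPM in the Control libraries and 314, 346 and 244 RPM in the 2MUT libraries. Every 2-HG(+) library lay below and every 2MUT library above its control libraries, with log2 fold changes of -1.83 ± 0.18 (adjusted p = 7.3e-05) and 0.50 ± 0.14 (adjusted p = 0.016). The call in 2MUT was lost without Control replicate 1 or 2MUT replicate 1 or 2 (adjusted p up to 0.076) and with an unmoderated test (adjusted p = 0.14).

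For the 28 members tested in both experiments, which share no library, the calls can be set side by side. Of these, 9 were lower in both, 3 were higher in 2MUT and lower with 2-HG, and 16 were lower with 2-HG and did not pass the test in 2MUT. Among all 9594 genes tested in both, these classes held 3.06%, 4.20% and 9.06%, and since every member tested was lower with 2-HG, the classes differ among the members only in the call in 2MUT. Since a call in one and not in the other does not show a difference, the change in 2MUT minus the change with 2-HG was tested over the 12 libraries. This difference was above 0 and past the threshold for 25 of the 28 members and below 0 and past it for 1, where 19.9% and 19.5% of 9594 genes were called in these directions. Its median over the members was 1.13, beside 0.05 for all genes. The largest differences on this scale were those of Ifit1, 3.03 ± 0.18 (adjusted p = 4.1e-08), Cmpk2, 2.72 ± 0.27 (adjusted p = 3.8e-06), and Ifi44, 2.64 ± 0.23 (adjusted p = 1.6e-06). This order depends on the scale, since Usp18, at 2.42 ± 0.29 here, had the largest difference with 0.1 added (3.60), with edgeR (3.69) and with DESeq2 (3.73), where Ifit1 had 3.20, 3.24 and 3.26. Ifi35, at 0.22 ± 0.19 (adjusted p = 0.38), and Lgals9, at 0.31 ± 0.12 (adjusted p = 0.0501), did not pass, although Lgals9 passed with 0.1 added, with no filter, with the filter at 10 RPM, with an unmoderated test and with DESeq2 (adjusted p from 0.0085 to 0.0485), and without Control replicate 3 (0.0456) or 2-HG(+) replicate 1 (0.037). The call of Parp12 (0.74 ± 0.27, adjusted p = 0.041) was lost without any 1 of 9 of the 12 libraries (adjusted p up to 0.085) and, with all libraries, with no filter, median-of-ratios scaling, an unmoderated test, edgeR and the replicate block (adjusted p from 0.0507 to 0.099). That of Trim25 (0.76 ± 0.23, adjusted p = 0.02) was lost without 2MUT replicate 3 (0.0501) or 2-HG(+) replicate 2 (0.0506). Ifi27l2a was the exception in the other direction, at -1.16 ± 0.33 (adjusted p = 0.014), but the difference was -0.39 with 0.1 in place of 1 RPM added (adjusted p = 0.66) and had the opposite sign with edgeR (0.13) and DESeq2 (0.21), neither past the threshold. The experiments also differ in vector, selection and length of exposure, which cannot be told apart from mutant against compound. Starting levels differed in both directions: the mean of Trim30a was 2.119 RPM in Control and 30.66 RPM in 2-HG(-), and that of Ifi27l2a 9.618 and 2.007 RPM. On log2(RPM + 1) a member that starts low has less room to fall, and the part of this in the differences was not tested.

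**Figure D4:**
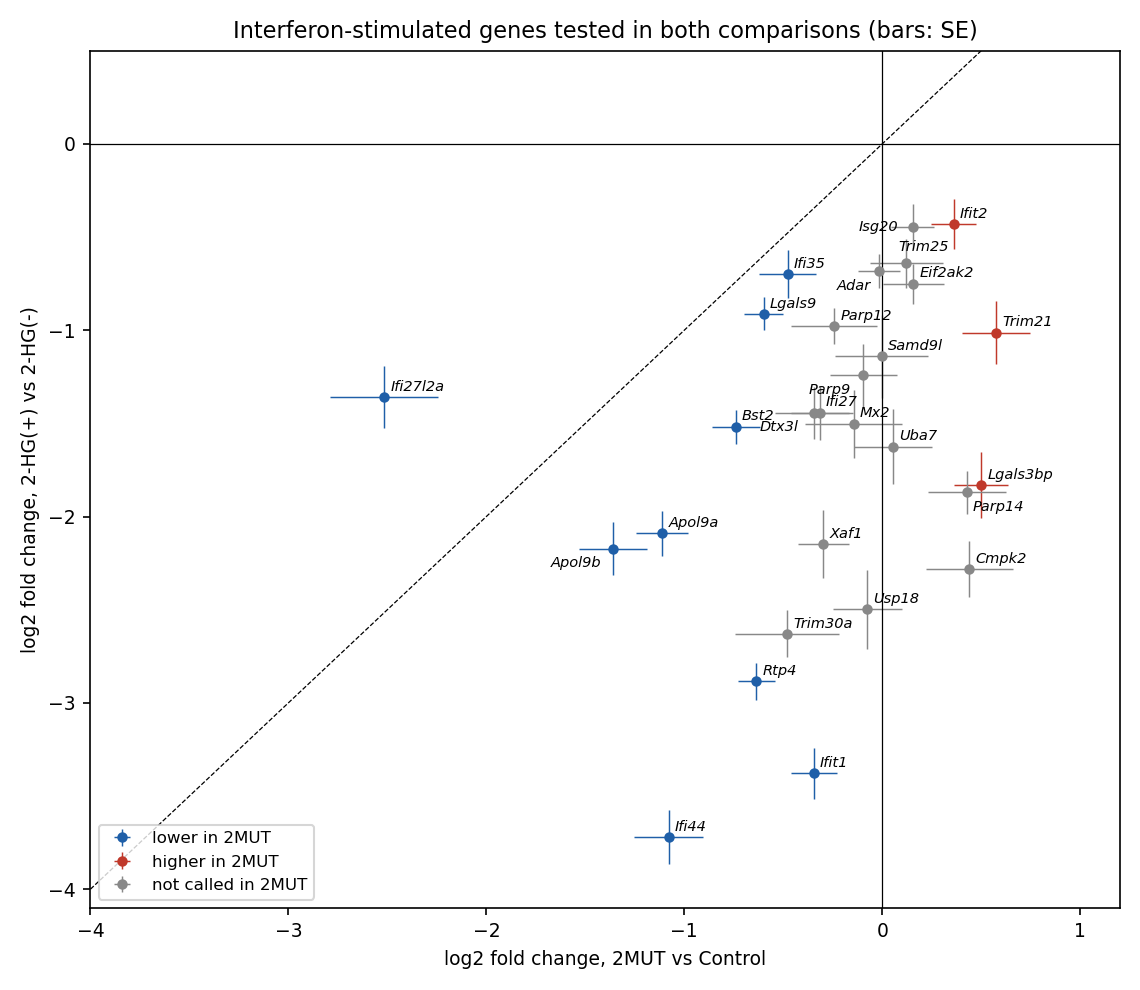
Log2 fold change of the 28 members tested in both experiments, 2MUT against Control on the x axis and 2-HG(+) against 2-HG(-) on the y axis, with standard errors as bars; the dashed line marks equal changes. All 28 points lie below 0 on the y axis and 27 lie below the dashed line, with Ifi27l2a above it.

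The members also differed in how tightly their libraries agreed. Among members whose group mean was 10 RPM or more, the median coefficient of variation was 11% in Control (21 members), 10.7% in 2MUT (22), 5.78% in 2-HG(-) (22) and 9.87% in 2-HG(+) (13). The steadiest were Rtp4 in Control (1.96%), Adar in 2MUT (3.58%), Lgals9 in 2-HG(-) (1.65%) and Parp12 in 2-HG(+) (1.06%), and the most variable were Parp12 in Control (33.8%), Dtx3l in 2MUT (22.2%), Lgals3bp in 2-HG(-) (21.5%) and Parp9 in 2-HG(+) (22%). By role, the median log2 fold change with 2-HG was -1.14 for the ISG15 system (4 tested), -1.14 for the nucleic acid effectors (7), -1.34 for the PARP, DTX and TRIM proteins (6), -1.90 for the IFIT family (2), -1.52 for the membrane restriction factors (1, Bst2) and -1.96 for the remaining genes (10). In 2MUT the corresponding medians were 0.06 (3), -0.0034 (7), -0.17 (6), 0.01 (2), -0.69 (2, Bst2 and Ifitm1) and -0.62 (10).

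The machinery upstream of these genes was read from lists of the pathway. Of the STAT and IRF factors, 6 of 8 tested were lower and 0 higher with 2-HG, and 2 of 8 were lower and 0 higher in 2MUT. These counts, and those of the lists that follow, stand beside 16.7% of all genes lower and 16.1% higher with 2-HG, and 17.3% lower and 16.5% higher in 2MUT, and the lists were not tested. Irf7, which drives interferon gene induction and is itself an interferon target, was at 15.2, 12.8 and 14.6 RPM in the 2-HG(-) libraries and 0.926, 1.32 and 1.11 RPM in the 2-HG(+) libraries. Irf9, a DNA-binding part of the complex at the ISRE, was at 57.2, 39.9 and 47.1 RPM in the 2-HG(-) libraries and 8.59, 9.56 and 10.7 RPM in the 2-HG(+) libraries. Stat2 was at 17.2, 16.4 and 18 RPM in the 2-HG(-) libraries and 4.17, 6.31 and 6.93 RPM in the 2-HG(+) libraries. For these 3 genes the groups stood apart, with log2 fold changes of -2.84 ± 0.14 (adjusted p = 1.9e-06), -2.20 ± 0.15 (adjusted p = 1e-05) and -1.44 ± 0.17 (adjusted p = 0.00026). In 2MUT their log2 fold changes were -0.20 ± 0.16, 0.08 ± 0.15 and 0.11 ± 0.14, with adjusted p = 0.36, 0.7 and 0.57.

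Irf1, an interferon-gamma target that also acts without interferon, was at 308, 419 and 355 RPM in the 2-HG(-) libraries and 294, 231 and 212 RPM in the 2-HG(+) libraries. It was at 215, 211 and 188 RPM in the Control libraries and 106, 110 and 115 RPM in the 2MUT libraries. Its log2 fold change was -0.56 ± 0.15 with 2-HG (adjusted p = 0.018) and -0.89 ± 0.10 in 2MUT (adjusted p = 7.1e-05), a difference that did not pass the test (adjusted p = 0.18). Of the receptors and kinases, 4 of 8 tested were lower and 0 higher with 2-HG, and 1 was lower and 2 higher of 8 in 2MUT, the latter counts being near the shares among all genes. Ifnar1, a chain of the type I interferon receptor, was at 195, 202 and 228 RPM in the 2-HG(-) libraries and 131, 150 and 164 RPM in the 2-HG(+) libraries. It was at 153, 139 and 163 RPM in the Control libraries and 202, 193 and 199 RPM in the 2MUT libraries. It thus fell with 2-HG (log2 fold change -0.49 ± 0.11, adjusted p = 0.0088) and rose in 2MUT (0.38 ± 0.10, adjusted p = 0.01). The partner chain Ifnar2 was lower in both, with log2 fold changes of -0.52 ± 0.18 (adjusted p = 0.0496) and -0.54 ± 0.12 (adjusted p = 0.0048).

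Of nucleic acid sensors and adaptors, 9 of 12 tested were lower and 1 higher with 2-HG, and 4 of 10 were lower and 2 higher in 2MUT, where the shares among all genes are those given above. All 4 tested OAS genes and RNase L, which make and answer the second messenger 2-5A, were lower with 2-HG, and 3 of 7 were lower and 0 higher in 2MUT. Of the negative regulators of the pathway, 1 of 6 tested was lower and 0 higher with 2-HG, and 0 were lower and 2 higher of 6 in 2MUT. The 1 of 6 lower and the 2 of 10 higher are near the shares among all genes. Among the interferon ligands, none of the 13 listed in the 2-HG table reached a mean of 1 RPM, and 1 of 18 did in the mutant table. Ifnb1, interferon beta, rested on 7, 6 and 7 reads in the 2-HG(-) libraries and 1 read in each 2-HG(+) library, and on 0, 1 and 2 reads in Control and 3, 5 and 7 in 2MUT. These values were under the filter and were not tested.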

How the data were processed

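RNA-seq of 12 MEF libraries, 3 in each of 4 groups given by the labels, was used. The authors aligned Ion AmpliSeq reads and obtained gene counts from the AmpliSeqRNA plug-in v5.2.0.3 of Torrent Suite v5.2.2, and deposited RPM values in a table for each experiment, with 43280 and 23930 entries. Every library summed to 1000000 within rounding, and 100% of the values were whole multiples of 1 read within 0.02 of a read. Of the columns, 0 were left without a sample, and 4 entries of each table with a repeated name were left out of the tests. One target per gene is amplified, so levels were not compared between members. The sums over marker lists, and the part of Cd68 in them, describe reads and not relative amounts of the transcripts. The tables were kept separate because they list different entries.

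Changes were tested with limma 3.58.1 in R 4.3.3 with a mean-variance trend on log2(RPM + 1), within a table, over all genes whose mean was 1 RPM or more, with a Benjamini-Hochberg adjusted p under 0.05 as threshold. A log2 fold change is given with its SE on that scale, which understates the change of low genes, and folds are ratios of mean RPM. The difference of the changes was fitted over the 12 libraries for 9594 genes. Alternatives were 0.1 added in place of 1, no filter, a filter at 10 RPM, median-of-ratios scaling, an unmoderated test, edgeR 4.0.16 and DESeq2 1.42.0 on the reads recovered from RPM, a block for the replicate number, and fits that each omit 1 library. Tests were checked on simulated data.

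Members and lists were chosen with earlier results of these data known, so no list was tested. Values in every library are given for members whose mean was 1 RPM or more in both tables and that passed in at least 1 comparison, and Stat2, Irf9, Irf1, Irf7, Ifnb1, Ifnar1 and Ifnar2 are named from the pathway lists. One gene covered by the rule for named genes is not reported here. Gene positions come from GENCODE M21 on GRCm38. Replicate libraries were not copies of one another: chi-square divided by its degrees of freedom was 5.57 to 31.5 between them.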

Additional observations from a re-analysis of the deposited data

Results flagged for a closer look

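Of the 28 members tested in both experiments, 3 were called in opposite directions with limma (Benjamini-Hochberg adjusted p under 0.05), higher in 2MUT and lower with 2-HG, where 403 of 9594 genes (4.20%) were. The change in 2MUT minus the change with 2-HG on the log2 scale was 0.79 for Ifit2, 1.59 for Trim21 and 2.33 for Lgals3bp. These differences are given as a description, since members picked for opposite calls have a difference by construction. For each, the 3 treated or mutant libraries lay on 1 side of their 3 control libraries, and each call in 2MUT was lost in at least 1 fit that left out a library. No group held enough libraries for a search for single libraries that stand apart.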

How the results depend on the processing

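Of the 30 members called lower with 2-HG, 26 kept the call under every alternative that left in all libraries and tested them. In every fit without 1 library 27 kept it, and 0 were called higher in any fit. The count was 26 with an unmoderated test, 22 of 22 tested with the filter at 10 RPM and 28 to 30 without 1 library. The members' median with 2-HG, -1.47, was -1.71 with 0.1 added, -1.72 with edgeR, -1.71 with DESeq2 and -1.51 to -1.41 without 1 library. In 2MUT, 8 of the 12 calls held under every such alternative that tested the member. In every fit without 1 library 7 held, and these fits called 7 to 9 members lower and 0 to 3 higher. The median in 2MUT, -0.20, was -0.26 with 0.1 added, -0.086 with no filter, -0.27 with the filter at 10 RPM, -0.30 with edgeR, -0.30 with DESeq2 and -0.26 to -0.11 without 1 library. The cause of these shifts was not tested. Of the 26 calls on the difference of the changes, 23 held in every fit that tested the member, and those of Ifi27l2a, Parp12 and Trim25 did not. The 1 member with a lower change in 2MUT than with 2-HG, Ifi27l2a, became 0 with 0.1 added, with the filter at 10 RPM, where it is not tested, with edgeR and with DESeq2, and it stayed at 1 without 1 library. Its difference reversed to 0.13 with edgeR (adjusted p = 0.86) and 0.21 with DESeq2 (adjusted p = 0.85), and was -0.39 with 0.1 added (adjusted p = 0.66).

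Libraries with the same replicate number did not clearly deviate together. The correlations of their deviations were 0.07, 0.03 and 0.03 in the mutant experiment and -0.46, -0.16 and 0.06 in the 2-HG experiment. Groups of 3 libraries are too small for this to exclude a pairing by number. With the replicate number as a block, 29 members were called lower with 2-HG, 9 were lower and 3 higher in 2MUT, and 24 had a higher and 1 a lower change in 2MUT than with 2-HG.

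With 3 libraries a group the precision is limited, and 3 reads are worth up to 0.464 RPM in the mutant experiment and 0.201 RPM in the 2-HG experiment, which bounds what can be said of members under 1 RPM.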
